A study of Mus musculus with 15 samples.

Results

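Regulators of G protein signalling (RGS proteins) were examined in the mouse aorta through 10 genes of the expression table: Rgs1, Rgs2, Rgs3, Rgs4, Rgs5, Rgs7bp, Rgs10, Rgs16, Rgs18 and Rgs19. They were taken by name from the 34714 genes listed, at a time when earlier results of these data were known. RNA had been sequenced from 15 aorta libraries of wild-type mice in 3 groups of 5. Sham was the control. AngII mice received angiotensin II, a pressor peptide, infused at 750 ng/kg per minute. AngII + RvE1 mice received the same infusion together with resolvin E1, a lipid mediator made from an omega-3 fatty acid, injected intraperitoneally at 2 µg/kg per day. The study asked whether resolvin E1 limits hypertension and vascular remodelling under angiotensin II. The labels give no age, sex, strain background or length of infusion for these groups. They do not say that the libraries of a group came from separate mice, so the p-values measure the spread between these libraries, which may be technical.

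Heterotrimeric G proteins carry signals from receptors in the cell membrane while their alpha subunit holds GTP. An RGS protein binds the active alpha subunit and speeds the hydrolysis of that GTP, which ends the signal. In vascular smooth muscle, angiotensin II, endothelin and noradrenaline act largely through Gq, and RGS proteins there limit the contractile response. In leukocytes, RGS proteins limit chemokine signals that pass through Gi. Rgs7bp is not itself an RGS protein: it binds complexes of the R7 group of RGS proteins with the G beta subunit Gnb5 and anchors them at the membrane. By what is known of where they act, Rgs4, Rgs5 and Rgs7bp were placed with the vessel wall, Rgs1, Rgs10, Rgs18 and Rgs19 with leukocytes or platelets, and Rgs2, Rgs3 and Rgs16 with genes that are broadly expressed or inducible in both.

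Values were treated as FPKM, a read count scaled to gene length and library depth, and were tested as log2(FPKM + 1). Every difference in log2 below is on that scale, where the added 1 understates changes of low genes. A gene was called changed where limma's moderated test over all 12603 genes that reached 1 FPKM in at least 5 libraries gave a Benjamini-Hochberg adjusted p under 0.05. AngII against Sham gave 298 higher genes (2.36% of those tested) and 102 lower (0.809%). With each library rescaled by its median ratio the split was 257 and 247. Resolvin E1 added to AngII gave 531 higher (4.21%) and 543 lower (4.31%), or 799 and 465 after rescaling. Over all tested genes the log2 difference had a median of 0.11 and -0.11 in these comparisons, which share the AngII libraries. Rescaling brought these medians to 0.0086 and -0.027. AngII + RvE1 against Sham gave 2 higher genes (0.0159%) and 1 lower (0.00793%), with a median of 0.01. Defining genes of smooth muscle, endothelium and fibroblasts were present in every group, and those of fat and heart muscle were found as well. AngII libraries 3, 4 and 5 stood apart: the mean log2 level of 10 pan-leukocyte genes was 6.74, 5.06 and 6.86 there, and between 2.03 and 3.52 in the other 12 libraries.

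Rgs5 had the highest level of the 10 genes in each group, with a mean of 211 FPKM in Sham, 109 in AngII and 177 in AngII + RvE1. At least 95.2% of tested genes had a lower mean. Rgs2 came next at means of 55.8, 48.5 and 49.2 FPKM. In Sham, Rgs4 (26.8 FPKM) and Rgs3 (24.4 FPKM) followed, then Rgs10 (10.8 FPKM), Rgs19 (9.04 FPKM) and Rgs7bp (3.74 FPKM). Rgs18, Rgs16 and Rgs1 had means under 1 FPKM in Sham. In that order the ranges of neighbours overlapped except between Rgs3 and Rgs10 and between Rgs19 and Rgs7bp. In AngII the order below Rgs2 was Rgs10, Rgs3, Rgs19 and Rgs4, with overlapping ranges. The order of the 10 genes in AngII + RvE1 was again that of Sham.

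**Figure D1:**
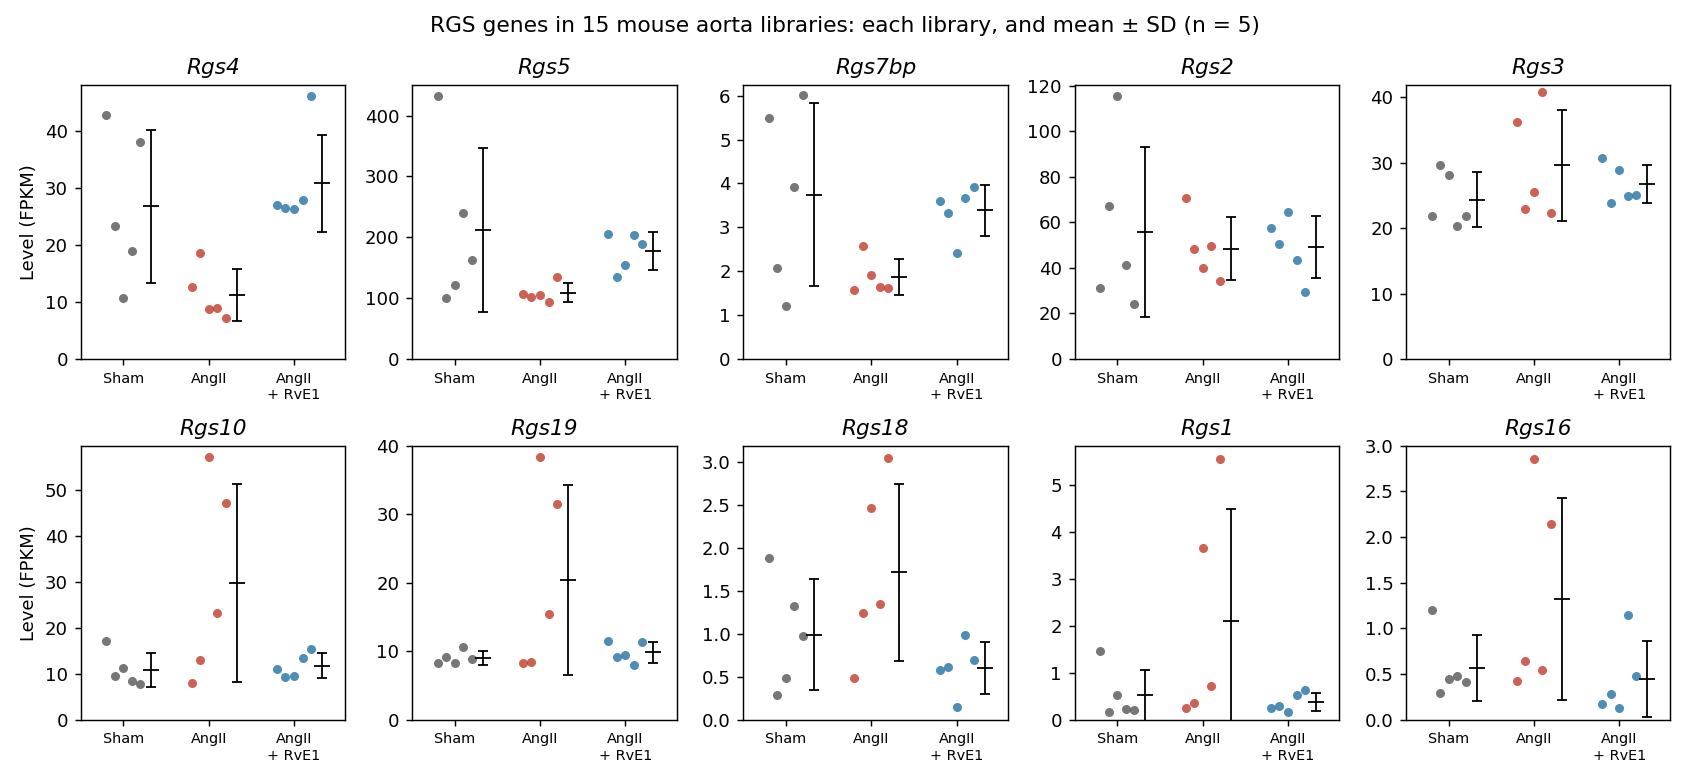
Level (FPKM, linear axes from 0) of each RGS gene in each library, with the mean and SD of 5 libraries beside the points; each panel has its own scale. All 5 AngII + RvE1 libraries lie above all 5 AngII libraries for Rgs4, while Rgs10 and Rgs19 are high in AngII libraries 3, 4 and 5.

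Of the 10 genes, 8 passed the filter on low values. Rgs1 reached 1 FPKM in 3 libraries and Rgs16 in 4, so they were fitted only without the filter. Rgs18 passed with 6 libraries, 4 of them AngII libraries, and its test rests on a group where it was high. In AngII against Sham, none of the 8 was called, where 3.17% of all tested genes were. At an unadjusted p under 0.05 the count was 5 of 8 in limma (Rgs4, Rgs5, Rgs7bp, Rgs10 and Rgs19), against 26.2% of all tested genes. Between AngII + RvE1 and AngII, 1 of 8 was called, Rgs4, against 8.52% of all tested genes, so the count is near the background. A limma unadjusted p under 0.05 was found for 6 of 8 (the same 5 and Rgs18), against 29.0% of all tested genes. Between AngII + RvE1 and Sham, limma called 0 of 8, where 0.0238% of all tested genes were called, and 0 of 8 had an unadjusted p under 0.05, against 6.69%. With array weights, which weight each library by its spread, 5 of 8 were called in AngII against Sham and 7 of 8 in AngII + RvE1 against AngII. Of all 12603 tested genes, 2821 and 4469 were called in those fits.

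The vessel wall genes are described first. Rgs4 encodes a small RGS protein that acts on Gq and Gi alpha subunits. Rgs5 encodes a close relative that is known as a marker of pericytes and arterial smooth muscle. Both lie on chromosome 1 and are neighbours, with no other protein-coding gene in the 45.7 kb between them. Rgs5 runs on the plus strand at chr1:169655501-169695813 and Rgs4 on the minus strand at chr1:169741477-169747642 (GRCm38, the build called mm10), so that their 3′ ends face each other. Rgs7bp lies on the minus strand at chr13:104945904-105054930.

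The 250 bases before the annotated start of each are shown because the means of these 3 genes were lower in AngII than in the other groups. Rgs2, at chr1:143999338-144004149 on the minus strand, is shown for contrast, since its mean differed little between groups. The sequences are RefSeq's for GRCm38.p6, written 5′ to 3′ on the gene's own strand and ending at the base before the start. Their positions are chr1:169747643-169747892 for Rgs4, chr1:169655251-169655500 for Rgs5, chr13:105054931-105055180 for Rgs7bp and chr1:144004150-144004399 for Rgs2. Capitals mark GAGGAA, a core sequence of ETS family factors, here on the opposite strand as TTCCTC.
Rgs4: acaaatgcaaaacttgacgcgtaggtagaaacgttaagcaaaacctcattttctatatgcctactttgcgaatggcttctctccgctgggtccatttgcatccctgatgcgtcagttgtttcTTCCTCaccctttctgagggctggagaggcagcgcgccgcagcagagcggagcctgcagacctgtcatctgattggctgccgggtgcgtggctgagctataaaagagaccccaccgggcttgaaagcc
Rgs5: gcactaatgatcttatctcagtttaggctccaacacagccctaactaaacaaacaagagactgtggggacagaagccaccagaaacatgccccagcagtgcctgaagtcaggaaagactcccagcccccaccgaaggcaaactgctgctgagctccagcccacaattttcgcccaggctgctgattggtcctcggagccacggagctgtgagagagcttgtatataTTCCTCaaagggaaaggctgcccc
Rgs7bp: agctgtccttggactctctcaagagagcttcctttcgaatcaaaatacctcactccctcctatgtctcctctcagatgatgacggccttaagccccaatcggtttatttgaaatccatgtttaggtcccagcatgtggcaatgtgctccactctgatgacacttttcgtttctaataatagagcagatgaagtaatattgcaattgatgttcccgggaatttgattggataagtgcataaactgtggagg
Rgs2: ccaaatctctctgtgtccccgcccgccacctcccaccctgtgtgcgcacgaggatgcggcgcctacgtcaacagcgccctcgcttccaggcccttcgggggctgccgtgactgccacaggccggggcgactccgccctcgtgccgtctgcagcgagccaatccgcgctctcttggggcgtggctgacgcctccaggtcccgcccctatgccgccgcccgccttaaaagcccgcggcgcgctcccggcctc

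The CArG box, the binding sequence of serum response factor, was searched on both strands and matched in none of the windows of the 8 genes that have one, and in 1.47% of 32851 mouse windows of this length. GAGGAA was found once in the Rgs4 window, 128 to 123 bases before the start, and once in the Rgs5 window, 24 to 19 bases before it. It was in 23.3% of all windows. It was absent from the Rgs7bp, Rgs2 and Rgs10 windows and present in all 3 windows of Rgs19, the window of Rgs16 and 1 of the 2 of Rgs3. TGGGAA, a core sequence of the lymphoid factor Ikaros that shares its last 4 letters with GAGGAA, was in 1 window each of Rgs19 and Rgs3 and in 21.6% of all windows. The windows differed in base composition: G and C made up 53.6% of those of Rgs4 and Rgs5, 43.2% of that of Rgs7bp and 72.4% of that of Rgs2. Rgs1 and Rgs18 were not matched to a window. A match is a description of letters and was not tested as a site.

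Rgs4 was higher with resolvin E1 than with angiotensin II alone. Its level was 42.9, 23.3, 10.7, 19.0 and 38.0 FPKM in Sham libraries 1 to 5. In AngII libraries 1 to 5 it was 12.6, 18.6, 8.84, 8.95 and 7.28 FPKM. In AngII + RvE1 libraries 1 to 5 it was 27.1, 26.5, 26.4, 27.9 and 46.1 FPKM. The lowest AngII + RvE1 library was above the highest AngII library, and Sham overlapped both. Among all tested genes, 5.87% had every AngII + RvE1 library above every AngII library, and 5.23% had the reverse. Rgs4 rose by 1.41 on the log2 scale, or 2.66-fold in FPKM + 1, in AngII + RvE1 against AngII (SE 0.33, limma adjusted p = 0.0231, 5 against 5 libraries). Its log2 difference between AngII and Sham was -1.10 (SE 0.33), with a limma adjusted p of 0.0687. Between AngII + RvE1 and Sham it was 0.31 (SE 0.33, limma adjusted p = 0.959).

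The call of Rgs4 was close to the threshold. It was lost without AngII library 3 (limma adjusted p = 0.0513) or 5 (0.0718), and without AngII + RvE1 library 1 (0.0553), 4 (0.0588) or 5 (0.0666). Fitting without the filter on low values ended the call too (limma adjusted p = 0.0522, at the same difference). Without AngII libraries 3, 4 and 5 together, the difference was 0.92 with a limma adjusted p of 0.434. The log2 difference lay between 1.26 and 1.60 with any single library left out.

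Rgs5 was measured at 433, 99.8, 122, 240.3 and 162 FPKM in Sham libraries 1 to 5. The 5 AngII libraries lay closely together, at 106, 102, 106, 93.7 and 135.1 FPKM. Those of AngII + RvE1 were at 205, 135.2, 154, 203 and 189 FPKM. The AngII and AngII + RvE1 ranges just failed to meet, at 135.1 and 135.2 FPKM, and Sham overlapped both. The log2 difference was -0.76 (SE 0.31, limma adjusted p = 0.138) in AngII against Sham and 0.69 (SE 0.31, limma adjusted p = 0.150) in AngII + RvE1 against AngII. Neither passed the threshold. AngII + RvE1 and Sham differed by -0.07 (SE 0.31, limma adjusted p = 0.994).

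Rgs7bp, the membrane anchor, was at 5.50, 2.07, 1.21, 3.92 and 6.004 FPKM in Sham libraries 1 to 5. It was at 1.58, 2.58, 1.92, 1.64 and 1.62 FPKM in AngII, and at 3.60, 3.33, 2.42, 3.67 and 3.93 FPKM in AngII + RvE1. A single AngII library, library 2, was above the lowest AngII + RvE1 library. The log2 difference was -0.61 (SE 0.26, limma adjusted p = 0.160) in AngII against Sham, 0.61 (SE 0.26, limma adjusted p = 0.138) in AngII + RvE1 against AngII, and 0.01 (SE 0.26, limma adjusted p = 0.9997) in AngII + RvE1 against Sham. Of its R7 partners, Rgs7 had means of 13.8 FPKM in Sham, 13.7 in AngII and 13.1 in AngII + RvE1. Rgs11, also of the R7 group, had means of 1.47, 1.85 and 2.46 FPKM. Rgs6 and Rgs9 of that group had means under 1 FPKM in each group of libraries and were not tested. Gnb5, the G beta subunit of the R7 complexes, had means of 8.24, 9.55 and 8.33 FPKM. None of Rgs7, Rgs11 and Gnb5 was called in any comparison.

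**Figure D2:**
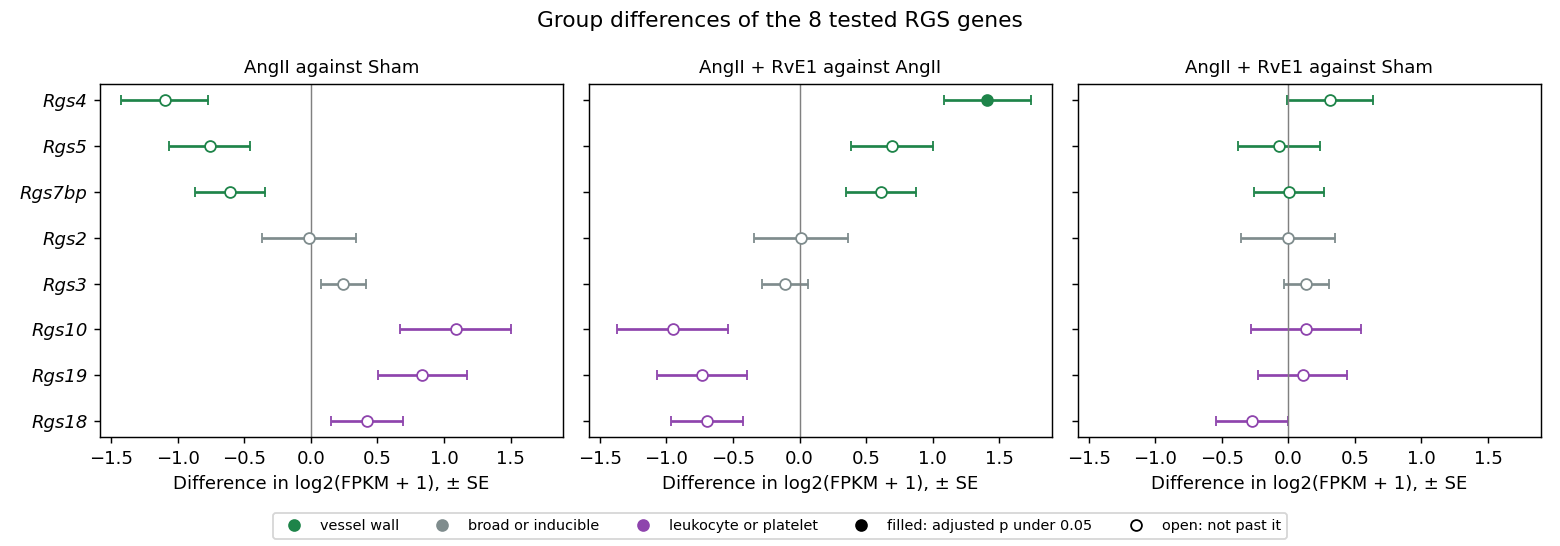
Difference in log2(FPKM + 1) with its standard error for the 8 tested RGS genes in the 3 comparisons, coloured by class, with filled points for an adjusted p under 0.05. Only Rgs4 in AngII + RvE1 against AngII, at 1.41, is filled. A fit without AngII libraries 3, 4 and 5 is not drawn. In it the differences of Rgs10 and Rgs19 (purple) change sign in the comparisons of the first and second panels, and that of Rgs18 in the first.

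Markers of contractile smooth muscle moved with the vessel wall genes. The mean log2 level of 12 such genes (Acta2, Myh11, Tagln, Cnn1 and others) was 7.08 in Sham, 5.91 in AngII and 7.57 in AngII + RvE1. With resolvin E1 added to AngII, 10 of the 12 were called higher and 0 lower, with a median log2 difference of 1.83. Between AngII and Sham, 2 of the 12 were called lower and 0 higher, with a median of -1.24. Of all tested genes, 4.21% were called higher in AngII + RvE1 against AngII and 0.809% lower in AngII against Sham. Summed over the 12 genes, Sham libraries held 1839 to 12818 FPKM, AngII libraries 1294 to 3590 and AngII + RvE1 libraries 5646 to 10192. Of 8 pericyte genes, 3 were called higher in AngII + RvE1 against AngII and 0 in AngII against Sham, and their mean log2 level was 4.26, 3.77 and 4.36 in Sham, AngII and AngII + RvE1. In bulk tissue, fewer cells of a type and less RNA per cell cannot be told apart.

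Set against the smooth muscle list in the same library, Rgs4 overlapped between all 3 groups. Its log2 level minus the list mean was -2.44 ± 0.24 in Sham, -2.36 ± 0.34 in AngII and -2.61 ± 0.30 in AngII + RvE1 (SD, n = 5 each). The difference of -0.25 between AngII + RvE1 and AngII had a p of 0.230 in an exact two-sided permutation test (0.329 adjusted over 30 such tests). Rgs5 stood at 0.86 ± 0.67 in AngII and -0.11 ± 0.13 in AngII + RvE1 relative to the list (SD, n = 5 each), a difference of -0.97. Rgs7bp stood at -4.40 ± 0.42 and -5.45 ± 0.25 (SD, n = 5 each), a difference of -1.05. AngII + RvE1 and AngII did not overlap in either gene. The exact two-sided permutation p was 0.00794 for both, the smallest that 5 against 5 libraries can give, and 0.0595 adjusted. Rgs2 and Rgs3, which were not called, had the same p against the same list, with larger differences of -1.65 and -1.77, so the lower relative level was not particular to Rgs5 and Rgs7bp. The mean of the list itself was 5.91 in AngII and 7.57 in AngII + RvE1, so a gene that does not change lies lower relative to it. The lack of overlap and the p therefore show no fall of Rgs5 or Rgs7bp, whose own means were higher in AngII + RvE1 than in AngII. None of the 30 tests passed 0.05 after adjustment. Without AngII libraries 3, 4 and 5 the differences were -0.44, -0.62 and -0.84 for Rgs4, Rgs5 and Rgs7bp.

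**Figure D3:**
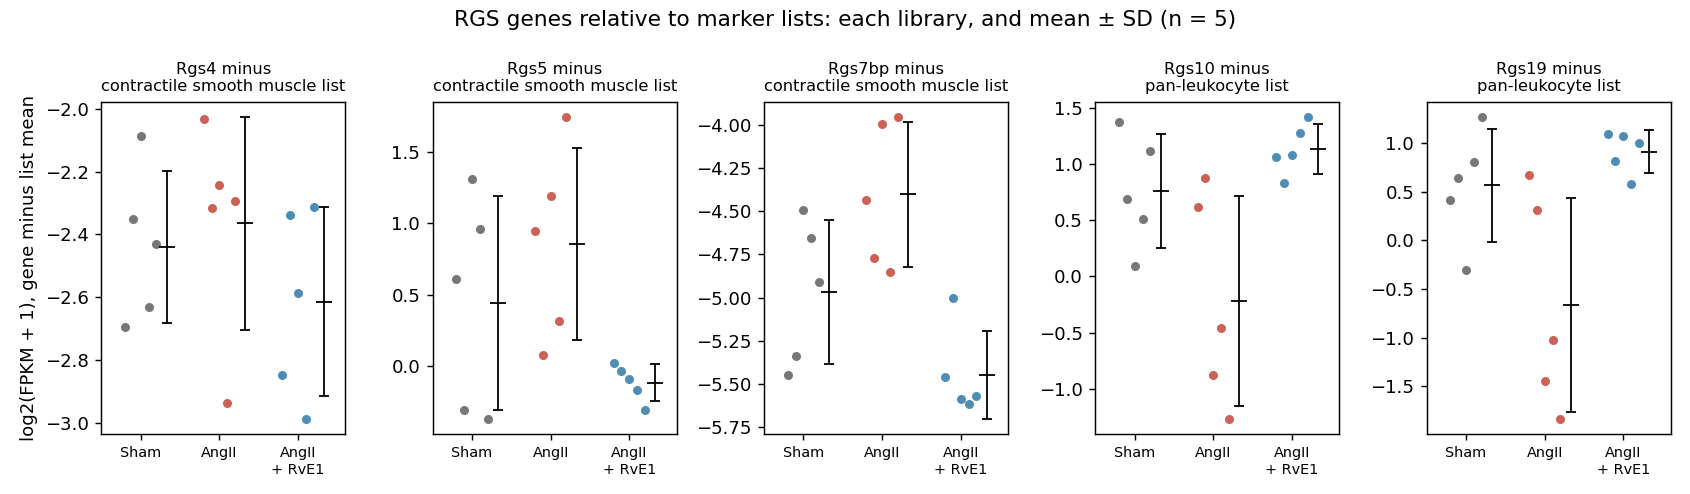
Level of 5 RGS genes relative to the mean of a marker list, in log2(FPKM + 1), for each library with the mean and SD of each group of 5. Rgs4 overlaps across the groups relative to smooth muscle genes, Rgs5 and Rgs7bp lie lower in AngII + RvE1 than in AngII, and Rgs10 and Rgs19 lie lowest relative to leukocyte genes in AngII libraries 3, 4 and 5.

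Across libraries Rgs4 followed the smooth muscle list closely. Correlations were taken over the 12 libraries other than AngII 3, 4 and 5, for the 10 genes against 4 marker lists, 40 relations in all, a choice made after seeing the data. The libraries come from 3 groups, so group differences enter each value, and no group has enough libraries for a value of its own. For Rgs4 and smooth muscle, Pearson's r was 0.950 and Spearman's rho 0.979 (permutation p of 1e-05 for each, the smallest that 100000 resamples can give, 0.0004 adjusted). Without the 2 libraries farthest from the median, r was 0.877 (permutation p = 0.00075). Rgs4 was related to the pericyte list as well, with r = 0.858 and rho = 0.895 (permutation p = 0.00035 and 0.00017, adjusted 0.0028 and 0.0034), and r = 0.765 without the 2 farthest. Rgs7bp had r = 0.896 and rho = 0.874 with the pericyte list (permutation p = 0.00015 and 0.00033, adjusted 0.0027 and 0.0035), and r = 0.836 without the 2 farthest. With smooth muscle, Rgs7bp had r = 0.865 and rho = 0.797 (permutation p = 0.00027 and 0.00284, adjusted 0.0027 and 0.0144), and r = 0.685 without the 2 farthest. Rgs5 had r = 0.864 and rho = 0.839 with the pericyte list (permutation p = 0.00043 and 0.00113, adjusted 0.00287 and 0.00753), and r = 0.819 without the 2 farthest. With smooth muscle, Rgs5 had r = 0.698 and rho = 0.664 (permutation p = 0.011 and 0.0218, adjusted 0.0292 and 0.0669). Over these 12 libraries the platelet list was related to all 3 vessel wall genes as well. For Rgs5 r was 0.894 and rho 0.888 (permutation p = 0.00025 and 0.00035, adjusted 0.0027 and 0.0035), above its values with the pericyte list, and r was 0.798 without the 2 farthest. Rgs7bp had r = 0.787 and rho = 0.846 with platelets (permutation p = 0.00253 and 0.00088, adjusted 0.0124 and 0.00704), and Rgs4 r = 0.713 and rho = 0.748 (permutation p = 0.00961 and 0.00698, adjusted 0.0275 and 0.0254), with r = 0.821 and 0.720 without the 2 farthest. Over all 15 libraries, r with the platelet list was lower, at 0.542 for Rgs5, 0.391 for Rgs7bp and 0.082 for Rgs4. In all, 16 of the 40 relations over the 12 libraries had an adjusted p under 0.05 for r and 12 for rho.

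**Figure D4:**
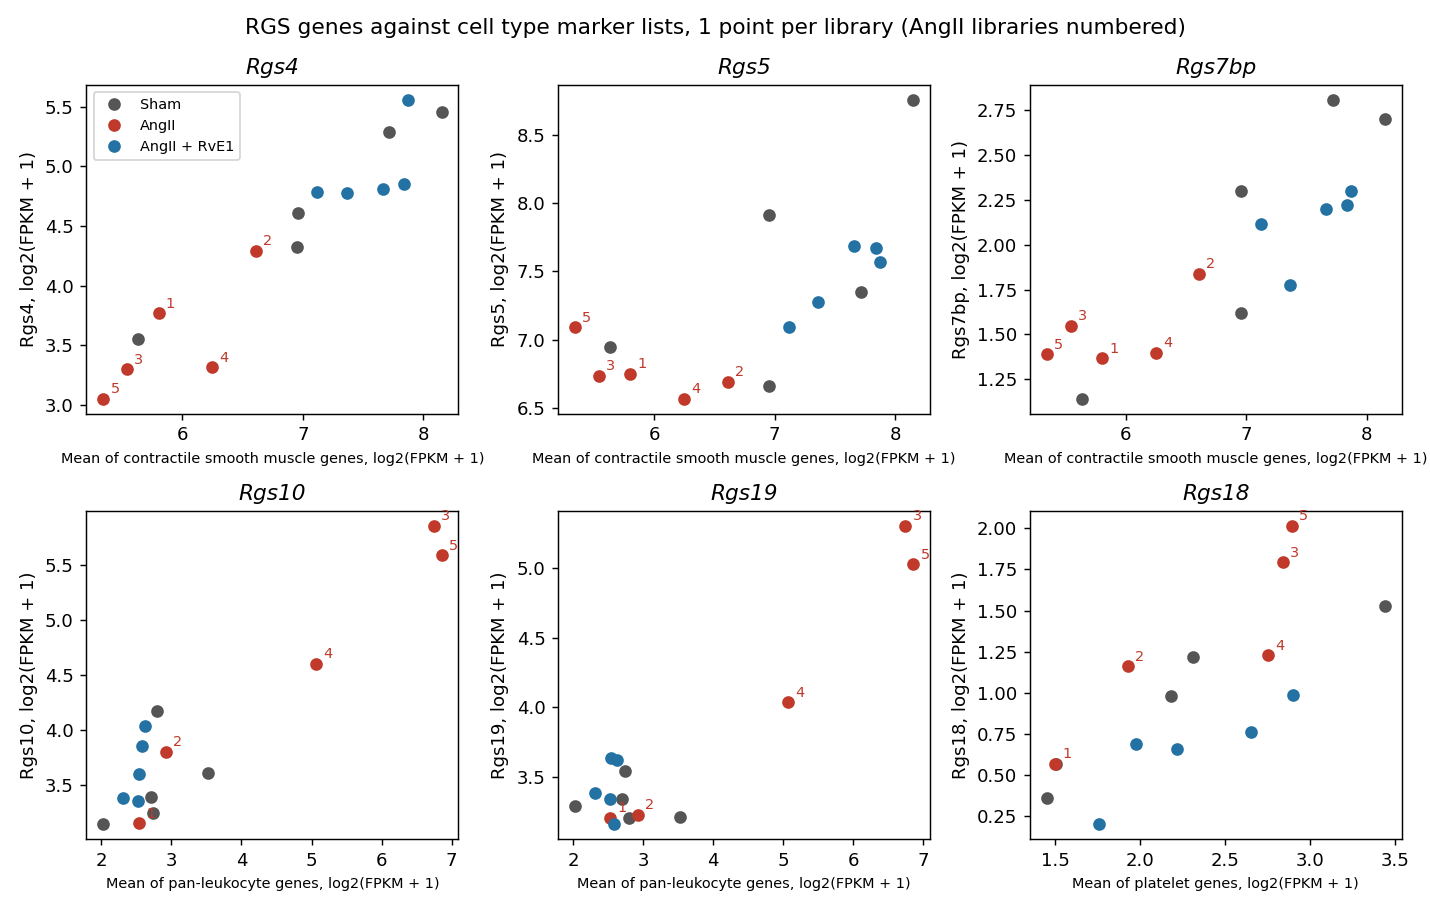
Level of 6 RGS genes against the mean of a marker list in the same library, both in log2(FPKM + 1), 1 point per library, coloured by group, with AngII libraries numbered. Rgs4 rises with the smooth muscle genes through all 3 groups, and Rgs10 and Rgs19 are high where the pan-leukocyte genes are high, in AngII libraries 3, 4 and 5.

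Neither tested gene of the broadly expressed class, Rgs2 or Rgs3, was called in any comparison. Rgs2 encodes an RGS protein with a preference for Gq that is known from mouse knockouts as a brake on blood pressure. It was at 31.0, 67.1, 115.6, 41.2 and 24.0 FPKM in Sham libraries 1 to 5, the widest spread of the groups. It was at 70.6, 48.1, 40.1, 49.5 and 34.1 FPKM in AngII, and at 57.6, 50.6, 64.7, 43.3 and 29.7 FPKM in AngII + RvE1. The 3 ranges overlapped. The log2 differences were -0.01 in AngII against Sham, 0.01 in AngII + RvE1 against AngII and 0.00 in AngII + RvE1 against Sham, each with an SE of 0.35. Leaving out 1 library moved the first between -0.25 and 0.30. Over the same 12 libraries Rgs2 ran against the smooth muscle list, with r = -0.774 and rho = -0.720 (permutation p = 0.00278 and 0.0102, adjusted 0.0124 and 0.0339). Without the 2 farthest libraries r was -0.551 (permutation p = 0.101), which no longer passed 0.05 with 10 libraries. With the pericyte list r was -0.797 and rho -0.790 (permutation p = 0.0021 and 0.00293, adjusted 0.012 and 0.0144), and r was -0.676 without the 2 farthest (permutation p = 0.0314).

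Rgs3 encodes a larger RGS protein that acts on Gq and Gi and lies at chr4:62559835-62703019 on the plus strand. Sham libraries held 20.4 to 29.6 FPKM, AngII libraries 22.4 to 40.9 and AngII + RvE1 libraries 23.9 to 30.7, with overlap. Its log2 differences were 0.24, -0.11 and 0.14 in the same order of comparisons, each with an SE of 0.17, and none was called. Rgs16, an inducible gene at chr1:153740353-153745468, was low. It was at 1.20, 0.288, 0.445, 0.479 and 0.412 FPKM in Sham libraries 1 to 5, at 0.426, 0.643, 2.86, 0.542 and 2.14 FPKM in AngII, and at 0.172, 0.287, 0.130, 1.15 and 0.480 FPKM in AngII + RvE1. AngII libraries 3 and 5 were the highest. In the fit without a filter it was not called in any comparison. Noncoding genes overlap Rgs3 and Rgs16 on the opposite strand and Rgs10 on its own strand (Gm11209, Gm28513 and Gm15503). How strand was counted is not given in the sources used here, so their reads cannot be told apart.

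Among the leukocyte genes, Rgs10 and Rgs19 had higher means in AngII, which came from 3 libraries. Rgs10, at chr7:128373621-128419506 on the minus strand, encodes a short RGS protein that acts on Gi and is abundant in immune cells and platelets. It was at 17.1, 9.49, 11.3, 8.52 and 7.83 FPKM in Sham libraries 1 to 5. In AngII libraries 1 to 5 it was at 7.90, 12.96, 57.1, 23.3 and 47.2 FPKM. AngII + RvE1 libraries were at 11.1, 9.25, 9.44, 13.5 and 15.5 FPKM. AngII libraries 3, 4 and 5 were above every other library, and AngII libraries 1 and 2 lay within the range of the rest. The log2 difference was 1.09 (SE 0.42, limma adjusted p = 0.123) in AngII against Sham and -0.95 (SE 0.42, limma adjusted p = 0.145) in AngII + RvE1 against AngII. Without AngII libraries 3, 4 and 5 these were -0.037 and 0.17.

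Rgs19, at chr2:181688419-181694537 on the minus strand, encodes an RGS protein also known as GAIP, which acts on Gi alpha subunits. Its Sham values were 8.26, 9.17, 8.29, 10.7 and 8.81 FPKM in libraries 1 to 5, the narrowest relative spread of any of the 10 genes in Sham. The AngII values were 8.25, 8.40, 38.5, 15.4 and 31.6 FPKM, and those of AngII + RvE1 11.5, 9.14, 9.46, 7.95 and 11.3 FPKM. The same 3 AngII libraries stood above all others. The log2 difference was 0.84 (SE 0.34, limma adjusted p = 0.135) in AngII against Sham and -0.73 (SE 0.34, limma adjusted p = 0.165) in AngII + RvE1 against AngII, and -0.10 and 0.21 without those libraries.

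The pan-leukocyte list moved with these genes. Summed over its 10 genes, Sham libraries held 48.6 to 187 FPKM, AngII libraries 71.3 to 1872 and AngII + RvE1 libraries 66.3 to 95.99. Of its 9 tested genes, 4 were called lower in AngII + RvE1 against AngII, where 4.31% of all tested genes were. Limma called 0 of the 9 in AngII against Sham, where 3.17% of all tested genes were called. The median log2 differences of the 9 genes were of similar size, -2.39 in AngII + RvE1 against AngII and 2.24 in AngII against Sham. B cell genes had mean log2 levels of 5.54, 3.96 and 6.23 in AngII libraries 3, 4 and 5 and of 0.37 to 1.89 in the other 12 libraries. T cell genes were at 3.61, 2.79 and 4.31 there and at 0.22 to 1.86 elsewhere. No gene of these lists was at 0 in all 5 libraries of a group. Their part in the levels of Rgs10 and Rgs19 was not tested. Over all 15 libraries, with AngII libraries 3, 4 and 5 included, r with the pan-leukocyte list was 0.936 for Rgs10 and 0.931 for Rgs19. Over the 12 other libraries, r was 0.388 and rho 0.601 for Rgs10 (permutation p = 0.218 and 0.0434, adjusted 0.301 and 0.109). For Rgs19 they were -0.210 and -0.168 (permutation p = 0.514 and 0.605, adjusted 0.588 and 0.692).

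Relative to the pan-leukocyte list, Rgs10 was at 0.76 ± 0.50 in Sham, -0.22 ± 0.94 in AngII and 1.13 ± 0.22 in AngII + RvE1 (SD, n = 5 each). Rgs19 was at 0.56 ± 0.58, -0.66 ± 1.10 and 0.91 ± 0.22 (SD, n = 5 each). The difference between AngII + RvE1 and AngII was 1.35 for Rgs10 and 1.58 for Rgs19, each with an exact two-sided permutation p of 0.0159 (0.068 adjusted over 30 tests). Neither passed 0.05 after adjustment. The mean of the list itself was 4.82 in AngII and 2.52 in AngII + RvE1. A gene that falls less than the list, or does not change, has a positive difference here. The sign and the p therefore show no rise of Rgs10 or Rgs19, whose own means were lower in AngII + RvE1 than in AngII. Without AngII libraries 3, 4 and 5 the differences were 0.38 and 0.42.

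Rgs18, an RGS gene of platelets and blood cells at chr1:144752683-144775427 on the minus strand, was low throughout. It was at 1.89, 0.287, 0.484, 1.32 and 0.9747 FPKM in Sham libraries 1 to 5. It was at 0.484, 1.24, 2.47, 1.34 and 3.05 FPKM in AngII and at 0.580, 0.613, 0.150, 0.986 and 0.694 FPKM in AngII + RvE1. Of the AngII libraries, 4 of 5 were above every AngII + RvE1 library. The log2 difference was -0.69 (SE 0.27, limma adjusted p = 0.111) in AngII + RvE1 against AngII, 0.42 (SE 0.27, limma adjusted p = 0.341) in AngII against Sham and -0.27 (SE 0.27, limma adjusted p = 0.956) in AngII + RvE1 against Sham. Without AngII libraries 3, 4 and 5 the first was -0.21 and the second -0.066. Sham library 1, the highest Sham library for Rgs18, also had the highest mean of 9 platelet genes, 3.44 on the log2 scale, with the integrin gene Itga2b at 7.19 FPKM and the platelet receptor gene Gp9 at 19.1 FPKM. Over 12 libraries Rgs18 had r = 0.747 and rho = 0.776 with the platelet list (permutation p = 0.00501 and 0.0043, adjusted 0.02 and 0.0172), and r = 0.556 without the 2 farthest (permutation p = 0.096), which no longer passed 0.05 with 10 libraries. This relation was not particular to Rgs18: Rgs5, Rgs7bp and Rgs4 were related to the same list over these 12 libraries, and Rgs1, Rgs10 and Rgs16 had r of 0.755, 0.695 and 0.729 with it (permutation p = 0.00599, 0.0119 and 0.00839, adjusted 0.0218, 0.0298 and 0.0258). By rho (0.531, 0.490 and 0.559) those 3 did not pass (permutation p = 0.0801, 0.111 and 0.0638, adjusted 0.169, 0.211 and 0.142), and r without the 2 farthest was 0.330, 0.389 and 0.160. Rgs2 ran against the platelet list, with r = -0.718 and rho = -0.790 (permutation p = 0.00811 and 0.00325, adjusted 0.0258 and 0.0144). Without the 2 farthest libraries its r was -0.797 (permutation p = 0.00546). The platelet list itself had mean log2 levels, in Sham, AngII and AngII + RvE1, of 2.18 ± 0.81, 2.38 ± 0.63 and 2.30 ± 0.47 (SD, n = 5 each), with 1 of 7 tested genes called higher in AngII + RvE1 against AngII and 0 lower. Its part in the level of Rgs18 was not tested.

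Rgs1, a lymphocyte gene at chr1:144244669-144249104, was at 1.46, 0.159, 0.534, 0.234 and 0.216 FPKM in Sham libraries 1 to 5. It was at 0.260, 0.350, 3.66, 0.727 and 5.54 FPKM in AngII and at 0.258, 0.295, 0.175, 0.517 and 0.635 FPKM in AngII + RvE1. AngII libraries 3 and 5 were the highest. In the fit without a filter its log2 difference was 0.75 (SE 0.41, limma adjusted p = 0.306) in AngII against Sham and -0.85 (SE 0.41, limma adjusted p = 0.244) in AngII + RvE1 against AngII.

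Of the vessel wall and leukocyte genes, Rgs4 and Rgs10 stood in either order depending on the library, while Rgs5 was above Rgs10 in all 15 libraries. Rgs4 minus Rgs10, in log2(FPKM + 1), lay between -0.066 and 2.14 in Sham, with Sham library 3 lowest. In AngII it was 0.62, 0.49, -2.56, -1.29 and -2.54 in libraries 1 to 5. In AngII + RvE1 it lay between 0.99 and 1.52. Rgs10 was therefore the higher gene in AngII libraries 3, 4 and 5 and, by a small margin, in Sham library 3. Rgs4, Rgs5 and Rgs7bp together summed to 125 to 481 FPKM across Sham libraries, 104 to 144 across AngII and 165 to 239 across AngII + RvE1, most of it Rgs5. Rgs1, Rgs10, Rgs18 and Rgs19 together summed to 17.8 to 28.7, 16.9 to 102 and 19.2 to 28.1 FPKM in the same order. The vessel wall sum was the higher in every library, AngII 3 being the closest at 116 against 102 FPKM.

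Many of these genes lie together on chromosome 1. Rgs2, Rgs13, Rgs1, Rgs21 and Rgs18 follow each other without another protein-coding gene between them, over 776 kb (chr1:143999338-144775427). The neighbours differed in level: Rgs2 had a mean of 55.8 FPKM in Sham, Rgs1 of 0.520 and Rgs18 of 0.991, while Rgs13 and Rgs21 were listed at 0 in all Sham libraries. Rgs16 lies 42.7 kb from Rgs8, which was under 0.31 FPKM in every library.

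Other genes of the pathway were taken from 8 lists, described by counts and medians. Of all tested genes, 2.36% were called higher and 0.809% lower in AngII against Sham. In AngII + RvE1 against AngII the shares were 4.21% and 4.31%. Of 12 tested genes for other proteins with an RGS-like domain, 1 was called lower in AngII against Sham (median log2 difference 0.08, against 0.11 for all tested genes). It was also the 1 called higher in AngII + RvE1 against AngII (median -0.22, against -0.11). This gene was Grk5, a kinase that switches off activated receptors. Its mean was 14.7 ± 3.09 FPKM in Sham, 9.42 ± 0.93 in AngII and 13.9 ± 2.09 in AngII + RvE1 (SD, n = 5 each). Its AngII libraries lay below all others, while 0.778% of all tested genes had every AngII library below every Sham library. It fell by 0.58 in log2 in AngII against Sham (SE 0.14, limma adjusted p = 0.0403) and rose by 0.51 in AngII + RvE1 against AngII (SE 0.14, limma adjusted p = 0.0403).

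Of 10 tested G alpha genes, 0 were called in any comparison, where 3.17%, 8.52% and 0.0238% of all tested genes were, so the count is near the background. In AngII against Sham, 0 of 10 had an unadjusted p under 0.05 in limma, against 26.2% of all tested genes. In AngII + RvE1 against AngII it was 1 of 10, against 29.0%. That gene was Gna13 (means 8.78, 10.8 and 8.12 FPKM in Sham, AngII and AngII + RvE1). The median log2 differences of the 10 genes were -0.08 and 0.09 in the same order. Gnaq, the Gq alpha subunit, had means of 9.21, 8.46 and 9.01 FPKM in Sham, AngII and AngII + RvE1. Its close relative Gna11 had means of 34.3, 29.3 and 35.6 FPKM, and the Gi subunit Gnai2 of 177, 235 and 197 FPKM. Of 13 tested G beta and gamma genes, Gng2 was called higher in AngII against Sham, at 10.003 ± 5.45 against 2.20 ± 1.06 FPKM (SD, n = 5 each; log2 difference 1.64, SE 0.38, limma adjusted p = 0.0343). With resolvin E1 added to AngII, 3 of the 13 were called higher and 0 lower: Gng8, Gnb4 and Gng12, which rose by 1.08, 0.78 and 0.44 in log2 (median of the 13 genes -0.05).

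Of 7 tested Gq effector genes, 1 was called in AngII + RvE1 against AngII. It was Plcb4, a phospholipase C that Gq activates (log2 difference 0.95, SE 0.27, limma adjusted p = 0.0432). The median of the 7 genes was 0.12. In AngII against Sham 0 were called, and 4 of 7 had an unadjusted p under 0.05 in limma, against 26.2% of all tested genes. Of 15 tested Gq-coupled receptor genes, 3 were called higher in AngII + RvE1 against AngII and 0 lower (median -0.09). They were the adrenergic receptor gene Adra1d (1.33), the thromboxane receptor gene Tbxa2r (1.11) and the thrombin receptor gene F2r (0.82). None of the 15 was called in AngII against Sham, with 4 at an unadjusted p under 0.05 in limma, against 26.2% of all tested genes. Agtr1a, the main angiotensin II receptor gene of mouse vessels, was at 2.18 ± 0.70 FPKM in Sham and 4.37 ± 1.22 in AngII (SD, n = 5 each) with no overlap, a log2 difference of 0.75 (SE 0.24) that did not pass (limma adjusted p = 0.0785). Across all tested genes, 2.92% had every AngII library above every Sham library. Of 7 tested Gi-coupled leukocyte receptor genes, S1pr4, a sphingosine 1-phosphate receptor of lymphocytes, was called lower in AngII + RvE1 against AngII (-1.57, SE 0.44, limma adjusted p = 0.0421; median of the 7 genes -0.84). Of the other RGS genes 3 of 13 were tested (Rgs7, Rgs11 and Rgs12) and of the R7 partners 1 of 4 (Gnb5), and none was called. Between AngII + RvE1 and Sham, limma called no gene of these lists, where 3 of all tested genes were called. A limma unadjusted p under 0.05 was found there for 6 of 15 Gq-coupled receptor genes, 1 of 3 other RGS genes, 1 of 12 genes with an RGS-like domain and 1 of 13 G beta and gamma genes, and for none of the other lists, against 6.69% of all tested genes.

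These calls were near the threshold too, and each passed in 4 to 9 of the 15 fits with 1 library left out. Each was lost without AngII library 3 or without AngII library 5, and each in AngII + RvE1 against AngII was also lost without AngII + RvE1 library 1, 4 or 5. With a single library left out, limma adjusted p ran from 0.0135 to 0.103 and from 0.022 to 0.105 for the 2 calls of Grk5, from 0.00334 to 0.0947 for Gng2 and from 0.011 to 0.112 for S1pr4. For Gng8, Gnb4, Gng12, Plcb4, Adra1d, Tbxa2r and F2r it reached 0.0939, 0.105, 0.115, 0.122, 0.076, 0.0892 and 0.122. Without AngII libraries 3, 4 and 5 together, the log2 difference of S1pr4 was -0.27 and that of Gng2 was 0.82.

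For each tested RGS gene, the 3 genes with the most similar pattern were taken by Pearson's r of log2(FPKM + 1) over the 15 libraries, among 12603 genes. They were chosen for the likeness, so r is a description. For Rgs4 they were 2310030G06Rik (0.976), Susd5 (0.974) and Dstn (0.973), the last encoding the actin-severing protein destrin. For Rgs5 they were Ankrd29 (0.876), P2rx1 (0.876), an ATP-gated channel of smooth muscle and platelets, and Tsc22d1 (0.847). For Rgs7bp they were the serotonin receptor gene Htr1b (0.965), Tmem47 (0.957) and Adgrl2 (0.954). For Rgs10 they were Hmgn2 (0.974), Shisa5 (0.973) and Neurl3 (0.971), and for Rgs19 they included Incenp (0.981) and Zfp120 (0.978). For Rgs18 they were Usp37 (0.960), the NF-kappa-B inhibitor gene Nfkbia (0.949) and Rnf2 (0.948). For Rgs2 they were Alkbh3 (0.916), Gm34474 (0.907) and Get3 (0.887), and for Rgs3 Itpka (0.810), Snrpn (0.806) and Npepl1 (0.802). After each group's mean was removed, r was 0.934 to 0.941 for the genes like Rgs4 and 0.979 and 0.981 for Incenp and Zfp120. The values for Rgs10 and Rgs19 include AngII libraries 3, 4 and 5, which stood apart.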

How the data were processed

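Total RNA of 15 mouse aorta libraries was sequenced from libraries made with a SMARTER mRNA kit, per the labels' protocols. The authors deposited 1 table of gene symbols with 1 value per library. It names no unit. The deposited values were treated as FPKM, with scaling to gene length assumed. The build is mm10, per the submitters' processing notes. Aligner, counter and annotation: not given in the sources used here. Read depth is unknown.

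Genes at 1 FPKM or more in at least 5 libraries were kept, and log2(FPKM + 1) was fitted with limma-trend (limma 3.58.1, R 4.3.3) in 1 fit over the 3 groups, with 3 two-sided contrasts, each adjusted by Benjamini-Hochberg across its tested genes. The procedure was tested on simulated data. Each RGS gene minus its marker list mean was compared by exact permutation of libraries. All 10 genes matched RefSeq, and 8 have a promoter window. Named genes were the 10, their 3 most similar genes, up to 4 called members of each list by adjusted p (or the 2 with the smallest p where none was called) and Gnaq, Gna11, Gnai2, Gnb5 and Agtr1a; 1 similar gene is not reported here. The genes and lists were chosen with earlier results of these data known.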

Additional observations from a re-analysis of the deposited data

Results flagged for a closer look

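In 3 of 30 groups of 5 libraries, 1 library lay far from the others, by the gap to its neighbour as a share of the whole range. Chance flags about 1 in 20 such groups where values are independent and normally distributed. FPKM values need not be normal and the genes share libraries, so the number of flags cannot be judged against that rate. Rgs4 was at 46.1 FPKM in AngII + RvE1 library 5, with the next highest library of the group at 27.9 FPKM. Rgs1 was at 1.46 FPKM in Sham library 1, with the next at 0.534 FPKM. Rgs16 was at 1.20 FPKM in the same library, with the next at 0.479 FPKM. Without AngII + RvE1 library 5, Rgs4 differed by 1.26 in log2 between AngII + RvE1 and AngII (limma adjusted p = 0.0666).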

How the results depend on the processing

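Genes called in AngII against Sham, 400 in all, numbered 22 without AngII libraries 3, 4 and 5, 2821 with array weights (libraries weighted by their spread), 151 without a filter on low values, 37 in a fit of the 2 groups alone and 76 to 1719 with 1 library left out. In AngII + RvE1 against AngII, 1074 became 6, 4469 and 405 under the first 3 of these and 98 to 2035 with 1 library left out. In AngII + RvE1 against Sham, 3 became 5, 17, 1 and 1, and 1 to 8. Each fit tested 12603 genes, except that without a filter, which tested 26187. Of the RGS genes, 5 were called in AngII against Sham with array weights, and 0 to 2 with 1 library left out. In AngII + RvE1 against AngII, 1 became 0 without AngII libraries 3, 4 and 5, 7 with array weights, 0 without a filter, 3 in a fit of the 2 groups alone and 0 to 3 with 1 library left out. That fit of the 2 groups alone called 851 of all tested genes higher and 489 lower. The causes were not tested.

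With the replicate number as a block, 109, 433 and 1 genes were called in the 3 comparisons, and Rgs4 kept its call (limma adjusted p = 0.041); no other RGS gene was called. Whether the numbers pair the libraries is not known. Correlations of deviations between libraries of the same number ran from -0.41 to 0.10 in AngII against Sham. They ran from -0.34 to 0.032 in AngII + RvE1 against AngII and from 0.024 to 0.52 in AngII + RvE1 against Sham. Libraries of different numbers were not compared in this way, so these values cannot decide it.

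Signs changed as follows, the cause not tested. In AngII against Sham without AngII libraries 3, 4 and 5, Rgs10, Rgs18, Rgs19 and Rgs2 were at -0.037, -0.066, -0.10 and 0.29 in log2. Rgs2 was at 0.15 with array weights and -0.25 to 0.30 with 1 library left out. In AngII + RvE1 against AngII without those libraries, Rgs10, Rgs19 and Rgs2 were at 0.17, 0.21 and -0.29. With 1 library left out, Rgs2 ran from -0.099 to 0.18 and Rgs3 from -0.19 to 0.016. In AngII + RvE1 against Sham, Rgs2 was at -0.018 after median ratio rescaling and -0.24 to 0.32 with 1 library left out. Rgs5 was at 0.061 and Rgs7bp at -0.022 with array weights, and they ran from -0.28 to 0.24 and from -0.23 to 0.18. Relative to marker lists in AngII + RvE1 against Sham with 1 library left out, Rgs1 ran from -0.025 to 0.33, Rgs2 from -0.90 to 0.19, Rgs3 from -0.65 to 0.062, Rgs16 from -0.10 to 0.26 and Rgs18 from -0.31 to 0.16. Rgs16 was at -0.11 with an added value of 0.1. In AngII against Sham, Rgs4 ran from -0.0085 to 0.22 relative to its list, and Rgs16 was at 0.024 without AngII libraries 3, 4 and 5. No other sign changed: 465 values of log2 differences and 512 of relative levels kept sign and side of the threshold, 21 and 16 newly passed it, and 7 of the differences, all of Rgs4, lost it. Depth is unknown, so its part in the low values of Rgs1, Rgs16 and Rgs18 cannot be given.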

Other observations

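Of the 13 other RGS genes of the table, Rgs14 was at 0.227, 0.448, 8.49, 3.21 and 10.2 FPKM in AngII libraries 1 to 5, while all Sham and AngII + RvE1 libraries were under 1 FPKM. Rgs13 was listed at 0 in all Sham and AngII + RvE1 libraries and at 0, 0.0741, 0.208, 0.493 and 1.45 FPKM in AngII libraries 1 to 5. The highest values of Rgs14 were thus in AngII libraries 3, 4 and 5, and so were those of Rgs13. Neither gene passed the filter, so neither was tested. Rgs11 was called in no comparison, with means of 1.47 ± 0.61 FPKM in Sham, 1.85 ± 0.46 in AngII and 2.46 ± 0.32 in AngII + RvE1 (SD, n = 5 each), and its log2 difference of 0.52 in AngII + RvE1 against Sham had a limma adjusted p of 0.582.

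Marker lists of other cells had these mean log2 levels in Sham, AngII and AngII + RvE1. Endothelium was at 4.64, 5.01 and 4.58, fibroblasts at 5.85, 5.86 and 6.03, macrophages at 3.28, 4.37 and 3.29, adipocytes at 7.21, 7.40 and 6.82, and heart muscle at 4.11, 3.21 and 4.83. Of 8 macrophage genes, 3 were called higher in AngII against Sham and 4 lower in AngII + RvE1 against AngII. The shares of all tested genes were 2.36% and 4.31%. In AngII + RvE1 against AngII, 1 of 8 endothelial and 1 of 6 adipocyte genes were called lower. Limma called 0 of 6 fibroblast and 0 of 6 heart muscle genes in any comparison. The summed level of the heart muscle genes ran from 9.99 to 1854 FPKM across libraries.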
